A study of Mus musculus with 18 samples.

Results

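Pax3, Pax7, Sim1, En1, Lbx1, Met, Gab1 and Cxcr4 are 8 genes used as markers of the dermomyotome and of the muscle precursors that leave it. They were chosen by symbol as a known marker set, with earlier results of these data known. All 8 were matched among the 53465 gene identifiers of the deposited table. Expression was measured by poly(A) RNA sequencing in mouse embryos at embryonic day 9, with 20 to 24 somites. There were 5 control embryos and 4 embryos mutant for Meis1 and Meis2 (double knockout, DKO), in which both genes were conditionally deleted with Delta1Cre, a recombinase driven by the Delta1 (Dll1) gene, so that deletion was limited to cells with a history of its activity. Each embryo gave a posterior piece, made of the axial bud and its newest somites, and an anterior piece, made of the older somite-bearing axis. Each piece was therefore sampled in 5 control and 4 DKO libraries, 18 in all. The alleles of the controls and the strain are not given in the sources used here. Control embryos 1 to 5 had 23, 20, 24, 21 and 23 somites, and DKO embryos 1 to 4 had 22, 24, 20 and 23.

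As background, the dermomyotome is the dorsal epithelium of the maturing somite and the source of the skeletal muscle of the trunk and limbs. Pax3 and Pax7 mark its progenitors, while Sim1 and En1 mark parts of its lateral and central domains. At limb levels, cells of the ventrolateral lip detach in response to Hgf acting on its receptor Met, whose signal passes through the adaptor Gab1. The detached cells express the homeobox gene Lbx1 and are guided by the chemokine Cxcl12 acting on its receptor Cxcr4. Most of these genes are also used outside muscle precursors: Pax3 and Pax7 in the dorsal neural tube, En1 in ventral interneurons, Sim1 in mesoderm lateral to the somite, and Cxcr4 in vessels and many other embryonic cells. In dissected pieces, fewer cells of a type and less RNA per cell cannot be told apart.

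Total expected counts ranged from 12.7 to 38.2 megacounts per library, and levels are given as counts per megacount after scaling between libraries (CPM). The floor of 3 counts lay between 0.0791 and 0.233 CPM. Meis1 was at 113 to 135 CPM in anterior control and 89.8 to 111 CPM in anterior DKO libraries, and at 59.6 to 99.9 and 46.7 to 72.0 CPM in the posterior ones. Meis2 was at 177 to 203 against 130.5 to 157 CPM in the anterior and at 117 to 162 against 91.2 to 116 CPM in the posterior piece, so reads from both genes remained in the mutants. Gene counts do not show whether those reads cover the deleted exons. Control embryo 1 was labelled female, but it had Xist at 0.340 CPM or less and 151 to 162 CPM summed over Y-linked genes, the pattern of the libraries labelled male. Its genotype label was kept and was not tested, and values without this embryo are given where they change a call.

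Compared per kilobase of exon, Cxcr4 had the highest level of the 8 genes in every group. Its mean was 16.3 ± 1.65 CPM per kb in anterior control (SD, n = 5), 18.6 ± 2.85 in anterior DKO (n = 4), 16.3 ± 2.75 in posterior control and 20.2 ± 4.12 in posterior DKO. Pax3 and Gab1 came next, at 9.98 ± 0.567 and 9.65 ± 0.389 CPM per kb in anterior control, and their ranges overlapped in all 4 groups. Below them in anterior control came Lbx1 (2.97 ± 0.479), Pax7 (2.61 ± 0.527) and Met (2.08 ± 0.186), each with a range that overlapped its neighbour's. Sim1 (1.10 ± 0.0973) and En1 (0.975 ± 1.0) were lowest there. In posterior control the order changed below Gab1. Met stood at 2.53 ± 0.292, Sim1 at 1.35 ± 0.311, Pax7 at 0.658 ± 0.222, En1 at 0.108 ± 0.0837 and Lbx1 at 0.0406 ± 0.0358 CPM per kb. All neighbours in that stretch had separate ranges except En1 and Lbx1.

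**Figure D1:**
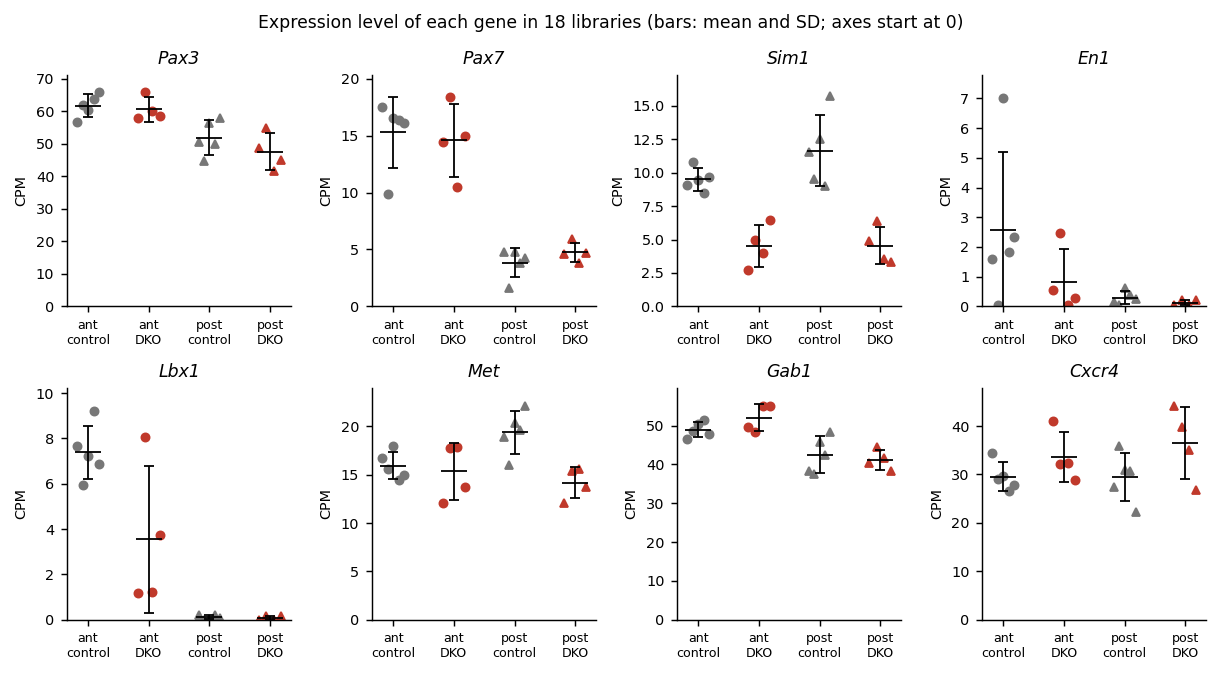
CPM of each gene (y axis, starting at 0) in the 4 groups (x axis): anterior control, anterior DKO, posterior control and posterior DKO, with 5, 4, 5 and 4 libraries. Each point is a library (circles anterior, triangles posterior, grey control, red DKO), and bars give the mean and SD. Sim1 DKO points lie below all control points in both pieces, and Lbx1 and Pax7 are low in all posterior libraries.

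Lbx1 and Pax7 were far lower in the posterior than in the anterior piece of every embryo, and En1 was lower in controls as a group but not in each embryo, whereas Pax3 and Gab1 differed little and Met was higher in controls. In control embryos, 6 of the 8 genes differed between posterior and anterior pieces at an adjusted p under 0.05. Of these, 5 were lower in the posterior piece (Lbx1, En1, Pax7, Pax3 and Gab1) and 1, Met, was higher. Among all 15294 genes tested in that comparison, 25.4% passed, with 13.3% lower and 12.1% higher. In DKO embryos, 4 of the 7 genes tested were lower in the posterior piece (Lbx1, Pax7, Pax3 and Gab1) and none was higher, beside 18.5% of 15777 genes tested, 9.7% of them lower. The median log2 fold change of the tested genes was −0.23 in controls and −0.33 in DKO embryos, against −0.01 and 0.01 over all genes tested.

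Lbx1 (ENSMUSG00000025216, minus strand of chromosome 19, 45232684 to 45235812 on GRCm38), the homeobox factor of the migrating precursors, showed the widest gap. Its anterior control levels were 7.65, 5.97, 7.23, 9.20 and 6.87 CPM in embryos 1 to 5. In the posterior control libraries it was at 0.185, 0.00, 0.0504, 0.204 and 0.0655 CPM, which are 0 to 7 counts. The posterior values straddled the floor of 3 counts, while every anterior control library held at least 93 counts. Posterior over anterior, the log2 fold change was −5.92 (SE 0.366, adjusted p = 2.77e-07) in controls and −5.29 (SE 0.926, adjusted p = 0.00257) in DKO embryos, and Lbx1 was lower in the posterior piece of 9 of 9 embryos. The posterior side of this fold rests on a few counts.

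Pax7 (ENSMUSG00000028736, minus strand of chromosome 4, 139737062 to 139833528), the paired box factor of muscle progenitors and dorsal neural tube, was lower posteriorly by a smaller factor. Anterior control levels were 17.5, 9.84, 16.6, 16.4 and 16.1 CPM, and posterior control levels were 4.80, 1.63, 4.74, 3.84 and 4.25 CPM. Its log2 fold change was −1.98 (SE 0.251, adjusted p = 8.37e-05) in controls and −1.61 (SE 0.186, adjusted p = 0.000202) in DKO embryos. Within embryos the anterior level was 2.73 to 6.03 times the posterior one. Control embryo 2, with 20 somites, was the lowest control in both pieces.

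Pax3 (ENSMUSG00000004872, minus strand of chromosome 1, 78101267 to 78197134), which is switched on earlier in the somite and in the dorsal neural tube, differed far less between the pieces. It stood at 56.6, 61.9, 60.5, 63.9 and 65.8 CPM in anterior control and at 50.7, 44.6, 56.5, 50.1 and 57.9 CPM in posterior control libraries. It was lower in the posterior piece of 9 of 9 embryos, with log2 fold changes of −0.25 (SE 0.0705, adjusted p = 0.0201) in controls and −0.34 (SE 0.0865, adjusted p = 0.0193) in DKO embryos. Control ranges overlapped between the pieces. The control call was lost without control embryo 2 (adjusted p = 0.0594) or 4 (0.0964), and the DKO call without DKO embryo 1 (0.0782), 3 (0.0767) or 4 (0.0538). Over all alternatives the adjusted p ran from 0.00609 to 0.0964 in controls and from 0.00326 to 0.0782 in DKO embryos. Neural tube progenitor genes differed the same way: all 13 of the list passed as lower posteriorly in controls and in DKO embryos, beside 13.3% and 9.7% of all genes. They had summed levels of 509 to 638 CPM in anterior against 202 to 312 CPM in posterior control libraries. Of 10 neural crest genes 6 passed as lower posteriorly in controls and 7 in DKO embryos, and 0 as higher. The part of both lists in the Pax3 and Pax7 difference was not tested.

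Gab1 (ENSMUSG00000031714, minus strand of chromosome 8, 80764438 to 80880519), the adaptor that links Met to its effectors, was also slightly lower in the posterior piece. It was at 46.6, 48.7, 50.6, 51.4 and 47.9 CPM in anterior and at 38.4, 37.7, 45.9, 42.4 and 48.4 CPM in posterior control libraries. Its log2 fold change was −0.21 (SE 0.0705, adjusted p = 0.04998) in controls, at the edge of the threshold, and −0.33 (SE 0.0688, adjusted p = 0.0067) in DKO embryos. The DKO libraries were at 48.5 to 55.0 CPM in the anterior and at 38.2 to 44.6 CPM in the posterior piece. The control groups overlapped. Size factors by relative log expression gave the control comparison an adjusted p of 0.0581, and dropping the low-count filter gave 0.0830. It was also lost without control embryo 1, 2, 3 or 4 (0.0761 to 0.163), and the DKO call without DKO embryo 1 (0.0505). Alternatives gave adjusted p from 0.0159 to 0.163 in controls and from 0.000391 to 0.0505 in DKO embryos. Gab1 shares 266 bp of exon with the antisense gene Gm31105 on the opposite strand, and reads from the pair cannot be told apart without strand information.

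Met (ENSMUSG00000009376, plus strand of chromosome 6, 17463800 to 17573980), the receptor for Hgf, went the other way in controls. Its posterior control levels were 18.9, 16, 20.4, 19.6 and 22.1 CPM, and its anterior control levels were 16.8, 15.6, 18, 14.4 and 15 CPM. It was higher in the posterior piece of 5 of 5 control embryos (log2 fold change 0.28, SE 0.0949, adjusted p = 0.0454), although the group ranges overlapped. In DKO embryos it was higher posteriorly in 2 of 4, with a log2 fold change of −0.11 (SE 0.15, interval −0.44 to 0.23). The control call did not hold without control embryo 1, 3, 4 or 5 (adjusted p 0.0706 to 0.167), or without the filter on low counts (0.0547), and its range over all alternatives was 0.0221 to 0.167. Whether the pieces differed in Met by another amount in DKO than in control embryos is tested with the genotype effects.

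En1 (ENSMUSG00000058665, plus strand of chromosome 1, 120602418 to 120607992) is a homeobox gene of the central dermomyotome and of ventral interneurons. Relative to its mean, it varied most among embryos in the anterior piece. In anterior control libraries 1 to 5 it stood at 1.59, 0.0387, 7.0, 1.84 and 2.33 CPM, and in posterior ones at 0.132, 0.0430, 0.605, 0.374 and 0.262 CPM. The library of the 20-somite embryo held 1 En1 count and that of the 24-somite embryo 90, and the ranges of the pieces overlapped through the former. Posterior over anterior, its log2 fold change was −3.16 (SE 0.877, adjusted p = 0.0186), and leaving out control embryo 1, 4 or 5 ended the call (0.0580 to 0.0666, with 7.97e-05 to 0.0666 over all alternatives). Without control embryo 3 its counts were too low to be tested. By CPM it was lower posteriorly in 4 of 5 control embryos, not in control embryo 2, and in 4 of 4 DKO embryos. The anterior level was 1.08 and 1.35 times the posterior one in DKO embryos 3 and 4. Control embryo 2 and DKO embryo 3 held 1 count in each piece, under the floor, so their direction rests on library scaling alone. DKO embryo 4 held 8 counts in the anterior and 4 in the posterior library. En1 was not tested between the pieces of the DKO embryos for want of counts.

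Sim1 and Cxcr4 did not pass the threshold between the pieces. Sim1 had a log2 fold change of posterior over anterior of 0.29 (interval −0.03 to 0.60) in controls and 0.01 (−0.62 to 0.65) in DKO embryos. Cxcr4 (ENSMUSG00000045382, minus strand of chromosome 1, 128588199 to 128592293) was at 27.5, 35.8, 31.0, 30.7 and 22.3 CPM in posterior and at 34.4, 29.1, 29.7, 26.6 and 27.8 CPM in anterior control libraries. Its interval was −0.24 to 0.24 in controls and −0.22 to 0.46 in DKO embryos.

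**Figure D2:**
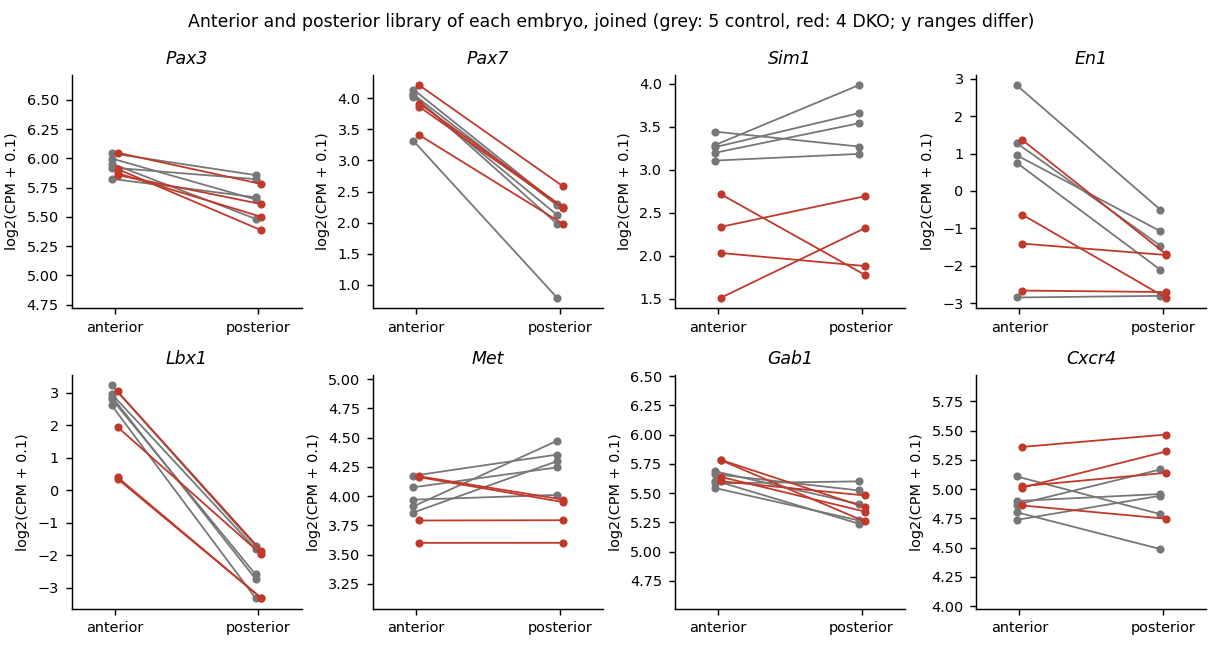
Log2(CPM + 0.1) of each gene (y axis, range differs by panel) in the anterior and posterior library of each embryo (x axis), joined by a line, for 5 control (grey) and 4 DKO embryos (red). Lines slope down in 9 of 9 embryos for Lbx1, Pax7 and Pax3, and Met lines slope up in 5 of 5 controls.

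The genotype comparison asked which genes depended on Meis1 and Meis2 in each piece. Sim1 was the one gene of the 8 whose DKO libraries lay below every control library in both pieces. Its mean was 4.53 ± 1.57 CPM (SD, n = 4) in anterior DKO against 9.50 ± 0.838 CPM (n = 5) in anterior control, and 4.54 ± 1.39 against 11.7 ± 2.68 CPM in the posterior piece. No member passed an adjusted p of 0.05 in edgeR's quasi-likelihood test in either piece, 0 of 8 in the anterior and 0 of 6 in the posterior one. Over all genes, 0.0394% of 15238 passed in the anterior and 0.0126% of 15936 in the posterior comparison. At an unadjusted p under 0.05 there were 2 of 8 and 2 of 6, beside 13% and 11% of all genes. DESeq2 put 1 anterior and 2 posterior members past its threshold, beside 1.94% and 1.01% of all genes. The median log2 fold change of the tested members was −0.06 in the anterior and −0.08 in the posterior piece, against 0.00 and 0.01 over all genes.

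Sim1 (ENSMUSG00000019913, plus strand of chromosome 10, 50894754 to 50989152), a basic helix-loop-helix PAS factor, stood in anterior control libraries 1 to 5 at 9.06, 10.8, 9.49, 8.51 and 9.65 CPM. In anterior DKO libraries 1 to 4 it stood at 2.74, 4.94, 3.98 and 6.46 CPM. The lowest control lay above the highest DKO library, and the log2 fold change was −1.07 (SE 0.208, interval −1.53 to −0.61, adjusted p = 0.0881).

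In the posterior piece Sim1 was at 11.5, 9.54, 12.5, 8.98 and 15.7 CPM in controls. The DKO libraries were at 4.88, 6.35, 3.58 and 3.33 CPM. Again no DKO library reached a control, and the log2 fold change was −1.34 (SE 0.22, interval −1.83 to −0.86, adjusted p = 0.0978). Groups that did not overlap, with the DKO lower, made up 2.61% of all genes tested in the anterior and 2.13% in the posterior piece.

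The Sim1 call depended on the test. DESeq2 gave adjusted p = 0.000283 in the anterior and 2.35e-06 in the posterior piece, and edgeR without the low-count filter gave 0.0319 and 0.0122. With somite number as a covariate edgeR gave 0.061 and 0.0364, and without DKO embryo 2 the posterior value was 0.0300. Over the anterior alternatives the log2 fold change ranged from −1.30 to −0.88 and the adjusted p from 0.000283 to 0.214. Over the posterior ones they ranged from −1.55 to −1.22 and from 2.35e-06 to 0.392. When the counts of both pieces of each embryo were added, a comparison chosen after the data were seen, Sim1 fell by 1.22 on the log2 scale (SE 0.155, adjusted p = 0.0164) and was 1 of 8 members past the threshold, beside 0.348% of 17827 genes, of which 0.196% were lower. That call was lost without control embryo 1, 3 or 5 or DKO embryo 1 (adjusted p 0.0603 to 0.0680), and alternatives reached down to 6.66e-12. The DKO effect on Sim1 did not differ detectably between the pieces (difference of log2 fold changes −0.27, interval −0.94 to 0.39).

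Markers of intermediate and lateral mesoderm, where Sim1 is also used, were read beside it. All 8 of that list had log2 fold changes below 0 in the anterior piece, with a median of −1.13, and 6 of 7 in the posterior piece, with a median of −0.39, and 0 passed the threshold in either. Of them 3 of 8 and 4 of 7 had an unadjusted p under 0.05, beside 13% and 11% of all genes. Their summed level was 69.0 to 140 CPM in anterior control and 40.3 to 64.0 CPM in anterior DKO libraries, and 138 to 176 against 87.7 to 139 CPM in the posterior piece. No gene of the list was at or under the floor in any group. Their part in the Sim1 difference was not tested.

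Lbx1 was uneven among the anterior DKO libraries, at 1.17, 8.08, 1.21 and 3.73 CPM, against 5.97 to 9.20 CPM in the controls. DKO embryo 2, with 24 somites, lay inside the control range and the other 3 lay below it. The log2 fold change was −1.07 (SE 0.479, interval −2.13 to −0.02, adjusted p = 0.377), and it was −1.83 without DKO embryo 2 (adjusted p = 0.0702, the lowest over the alternatives, which reached 0.712). In the posterior piece Lbx1 was not tested, since its DKO libraries held 0 to 5 counts and its controls 0 to 7.

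Met did not overlap between genotypes in the posterior piece. Posterior DKO libraries were at 12.0, 15.4, 15.6 and 13.8 CPM, all below the lowest control at 16 CPM. The log2 fold change was −0.45 (SE 0.116, interval −0.70 to −0.20, adjusted p = 0.276), and alternatives gave adjusted p from 0.0282 with DESeq2 to 0.534. In the anterior piece the DKO libraries were at 12.0, 17.8, 17.9 and 13.8 CPM and overlapped the controls at 14.4 to 18 CPM, with a log2 fold change of −0.06 (interval −0.34 to 0.22).

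The difference of these Met effects was −0.39 (SE 0.175, unadjusted p = 0.0371, adjusted p = 0.999). Across the 8 members the difference of the DKO effect between pieces passed the threshold in 0, beside 0% of 16428 genes, where DESeq2 called 10 genes. At an unadjusted p under 0.05 there was 1 of 8, Met, beside 3.45% of all genes.

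En1 was at 0.543, 2.47, 0.0577 and 0.277 CPM in anterior DKO libraries, and the groups overlapped. Its log2 fold change of −1.60 had an interval of −3.79 to 0.59 (adjusted p = 0.535), which is too wide to give a direction. It was −0.79 without control embryo 3 and −2.91 without DKO embryo 2. Posterior En1 was not tested between genotypes, since its libraries held 1 to 12 counts. Early spinal neuron genes, read because En1 is also used in interneurons, had log2 fold changes above 0 in 9 of 11 anterior and 8 of 11 posterior cases. In either piece 0 passed, with 2 and 4 at an unadjusted p under 0.05, beside 13% and 11% of all genes. With both pieces summed 9 of 12 lay above 0 and 1 passed as lower, beside 0.196% of all genes. In the anterior piece they summed to 150 to 342 CPM in DKO and 121 to 231 CPM in control libraries. Their part in the En1 levels was not tested.

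Pax3 and Gab1 were measured most closely, and their intervals held no large change. Anterior Pax3 was at 57.9, 66.1, 60 and 58.5 CPM in DKO libraries, with a log2 fold change of −0.03 (interval −0.15 to 0.09). Posterior Pax3 was at 48.7, 54.9, 41.7 and 45.2 CPM, with −0.12 (−0.33 to 0.08). Gab1 gave 0.09 (−0.03 to 0.20) in the anterior and −0.04 (−0.23 to 0.14) in the posterior piece. For both genes a 2.34-fold difference, the size seen for Sim1 in the summed pieces, lies outside the interval.

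Pax7 was at 14.4, 18.4, 10.5 and 15 CPM in anterior DKO and at 4.62, 5.90, 3.84 and 4.66 CPM in posterior DKO libraries, all within or close to the control ranges. Its log2 fold changes were −0.06 (interval −0.47 to 0.34) and 0.31 (−0.29 to 0.90). Neural tube progenitor genes of dorsal and ventral domains were read because Pax3 and Pax7 are also used in the dorsal neural tube. They had log2 fold changes above 0 in 13 of 13 cases in both pieces. Of them 1 passed in the anterior and 0 in the posterior piece, with 8 and 4 at an unadjusted p under 0.05. The anterior call was Hes5, an effector of Notch signalling (0.66, SE 0.0928, adjusted p = 0.0455), named after its value was seen and lost without any 1 of the 5 control embryos or without DKO embryo 1 or 3 (0.0514 to 0.162, and down to 4.87e-08 over all alternatives). Over all genes the shares were 0.0394% and 0.0126% past the threshold and 13% and 11% unadjusted. Their summed level was 688 to 760 CPM in anterior DKO against 509 to 638 CPM in anterior control libraries, and 264 to 361 against 202 to 312 CPM posteriorly. Neural crest genes, of another tissue that uses Pax3 and Pax7, lay above 0 in 9 of 10 anterior and 6 of 8 posterior cases, with 7 and 2 at an unadjusted p under 0.05 and 0 past the threshold. They summed to 243 to 319 CPM in anterior DKO against 229 to 268 CPM in anterior control libraries, and to 131 to 195 against 138 to 192 CPM posteriorly, so both pairs overlapped. The part of both lists in the Pax3 and Pax7 levels was not tested.

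Cxcr4 did not pass the threshold in either piece. Anterior DKO libraries were at 41.0, 32.2, 32.5 and 28.9 CPM and posterior ones at 44.1, 39.9, 35.1 and 26.7 CPM, overlapping the controls in both pieces. The log2 fold changes were 0.19 (interval −0.04 to 0.42, adjusted p = 0.484) and 0.31 (−0.03 to 0.64, adjusted p = 0.478). Endothelial genes, another source of Cxcr4, had summed levels of 368 to 415 CPM in anterior control and 323 to 412 CPM in anterior DKO libraries, and of 233 to 383 and 241 to 334 CPM in the posterior piece, with 7 of 10 and 9 of 10 log2 fold changes below 0. Their part in the Cxcr4 levels was not tested.

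**Figure D3:**
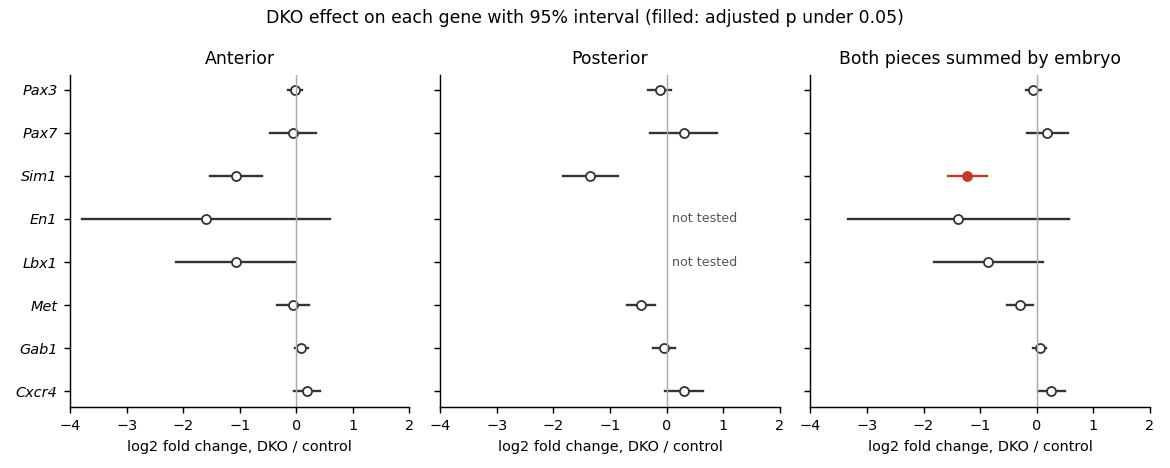
Log2 fold change of DKO over control (x axis) with its 95% interval for each gene (y axis) in the anterior piece, the posterior piece and both pieces summed by embryo. Open points did not pass an adjusted p of 0.05, and the filled Sim1 point in the summed comparison, at −1.22, did. Intervals of Pax3 and Gab1 are narrow around 0 and that of En1 is the widest.

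The embryos differed in stage, and no member passed the threshold for a change with somite number. With genotype in the fit, anterior En1 had a log2 change of 1.02 per somite (SE 0.229, adjusted p = 0.122), anterior Pax7 0.17 (SE 0.0402, adjusted p = 0.129) and anterior Lbx1 0.30 (SE 0.142, adjusted p = 0.414). In the posterior piece Pax7 had 0.23 (SE 0.0707, adjusted p = 0.484) and Pax3 0.08 (SE 0.0225, adjusted p = 0.372). Sim1 had 0.15 (SE 0.0587, unadjusted p = 0.0242, adjusted p = 0.654) in the posterior and 0.04 (SE 0.0697, adjusted p = 0.859) in the anterior piece. Of all genes, 0.0328% passed in the anterior and 0.0126% in the posterior fit. Both 20-somite embryos, control 2 and DKO 3, had the lowest anterior Pax7 and En1 of their genotype, at 9.84 and 10.5 CPM for Pax7.

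**Figure D4:**
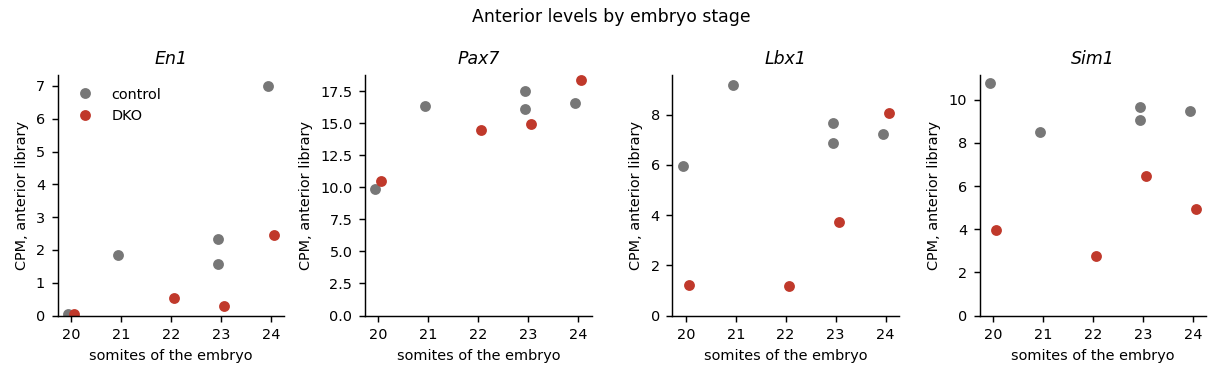
CPM of En1, Pax7, Lbx1 and Sim1 in the anterior library (y axis, starting at 0) against the number of somites of the embryo (x axis, 20 to 24), for 5 control (grey) and 4 DKO embryos (red). En1 and Pax7 are lowest at 20 somites in both genotypes, and all Sim1 DKO points lie below all control points.

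Binding motifs were looked for in windows from 250 bases before to 50 after a start, from the RefSeq promoter table (GRCm38.p6), which matched 6 of the 8 members with 7 windows. Pax3 and Lbx1 had no entry. The core Meis motif TGACAG, read on both strands, was found in the En1 window alone of the 7, and in 19.2% of all 32851 windows. The Pbx and Meis motif TGATTGAC (0.770% of all windows) and the Pbx and Hox motif TGATNNAT (8.85%) were in no member window. The En1 stretch is shown because it holds the motif, written CTGTCA in capitals on the gene's strand, and the Sim1 stretch because Sim1 had the clearest genotype separation and holds none of the motifs. En1 is printed from chr1:120602237-120602418 and Sim1 from chr10:50895401-50895472, both on the plus strand. The En1 stretch ends with the first base of its transcript. The Sim1 stretch lies upstream of the start of the longer of the transcripts there and in an intron of a shorter one, and exon bases were left out.
En1: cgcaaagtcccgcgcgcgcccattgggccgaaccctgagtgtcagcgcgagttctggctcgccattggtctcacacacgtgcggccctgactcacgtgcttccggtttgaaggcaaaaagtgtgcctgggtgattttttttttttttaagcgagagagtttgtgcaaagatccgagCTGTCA
Sim1: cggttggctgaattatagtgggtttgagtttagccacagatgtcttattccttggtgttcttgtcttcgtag
A match is a description of letters and not a bound site.

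Ligands and partners of the receptors were read beside them. Hgf was scarce, at 1.15 to 3.66 CPM in anterior control and 0.899 to 1.34 CPM in anterior DKO libraries, with a log2 fold change of −0.81 (interval −1.55 to −0.07, adjusted p = 0.345). Posterior Hgf gave 0.02 (−0.88 to 0.92). Among the 17 genes of the Hgf and Met pathway, 0 of 16 tested passed between genotypes in either piece, with 2 and 4 at an unadjusted p under 0.05, beside 13% and 11% of all genes. Between pieces 6 of 16 were higher posteriorly and 0 lower in controls, beside 12.1% and 13.3% of all genes. In DKO embryos 5 were higher and 1 lower, beside 18.5% of all genes in either direction.

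Cxcl12, the ligand of Cxcr4, was at 165, 148, 176, 162 and 160 CPM in anterior control libraries. The anterior DKO libraries were at 94.9, 142, 101 and 123 CPM. All 4 lay below every control, and the log2 fold change was −0.49 (SE 0.105, adjusted p = 0.102).

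In the posterior piece Cxcl12 was at 180 to 216 CPM in control and 122 to 187 CPM in DKO libraries, with −0.43 (SE 0.118, adjusted p = 0.316). DESeq2 gave adjusted p = 0.000583 and 0.0377, and in the anterior piece edgeR passed without the low-count filter (0.0351), with the somite covariate (0.0303) and without DKO embryo 2 (0.0296). Alternatives reached 0.35 in the anterior and 0.557 in the posterior piece. Between the pieces of control embryos Cxcl12 was higher posteriorly (log2 fold change 0.29, SE 0.0619, adjusted p = 0.00377). The scavenging receptor Ackr3 was lower posteriorly, with log2 fold changes of −0.78 (SE 0.0664, adjusted p = 3.36e-06) in controls and −0.83 (SE 0.136, adjusted p = 0.00177) in DKO embryos. Its genotype contrasts of 0.30 (adjusted p = 0.185) and 0.25 (adjusted p = 0.471) did not pass. Of all 10 genes of the Cxcl12 list, 0 passed between genotypes in either piece, with 3 and 1 at an unadjusted p under 0.05, beside 13% and 11% of all genes.

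Among 15 other dermomyotome factors, 1 passed the threshold in the anterior genotype comparison, beside 0.0394% of all genes. Eya2, a coactivator of the homeobox factors that act upstream of Pax3, was at 14.9 to 19.3 CPM in anterior control and at 33.4, 24.7, 32.4 and 27.2 CPM in anterior DKO libraries. It rose by 0.88 on the log2 scale (SE 0.111, adjusted p = 0.0286), 1 of 14 tested, and 6 of 14 had an unadjusted p under 0.05, beside 13% of all genes. The call was lost without control embryo 2, 3, 4 or 5 or DKO embryo 1 or 3 (adjusted p 0.0514 to 0.144), and alternatives reached down to 9.71e-10. Posterior Eya2 gave 0.21 (interval −0.12 to 0.55). The difference of the 2 effects was −0.66 (SE 0.195, adjusted p = 0.999).

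In the posterior piece 0 of 15 factors passed, 7 of them had an unadjusted p under 0.05 (11% of all genes did), and 11 of 15 lay below 0 with a median of −0.30. Among them, chosen after their values were seen, were Meox1 (−0.61, adjusted p = 0.282), Meox2 (−1.11, adjusted p = 0.334) and Dmrt2 (−0.89, adjusted p = 0.415), which act in the early somite and its dermomyotome. In the anterior piece 9 of 14 lay below 0 and 5 above, with a median of −0.05, near that of all genes. Summed levels of the 15 factors, which the most abundant of them weigh on most, did not overlap between genotypes, at 504 to 564 CPM in control and 417 to 495 CPM in DKO anterior libraries, and at 690 to 823 against 530 to 662 CPM in posterior ones. Sclerotome genes, which mark the ventral part of the somite, summed to 192 to 237 CPM in anterior DKO and 268 to 299 CPM in anterior control libraries. Posterior sums overlapped, at 166 to 257 against 218 to 317 CPM, and 0 of 8 passed in either piece. Their log2 fold changes were below 0 in 8 of 8 and 7 of 8 cases, with 4 and 3 at an unadjusted p under 0.05, beside 13% and 11% of all genes. Of 13 secreted signals that act on the dermomyotome, 0 of 12 tested passed between genotypes in the anterior and 0 of 13 in the posterior piece, with 6 and 1 at an unadjusted p under 0.05, beside 13% and 11% of all genes.

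Markers of other tissues were read beside the summed dermomyotome factors. Axial bud genes lay above 0 in 3 of 6 anterior and 10 of 10 posterior cases, and 0 passed in either piece. Of them 3 and 1 had an unadjusted p under 0.05, beside 13% and 11% of all genes. They summed to 94.2 to 101 CPM in anterior control and 105 to 132 CPM in anterior DKO libraries. Posterior sums overlapped, at 456 to 693 CPM in control and 487 to 766 CPM in DKO libraries. Epithelial genes summed to 109 to 219 CPM in anterior control and 124 to 210 CPM in anterior DKO libraries, and to 260 to 373 against 375 to 447 CPM in the posterior piece, where the groups did not overlap. Of 10 epithelial genes 0 passed in either piece, with 1 in the anterior and 5 in the posterior piece at an unadjusted p under 0.05, beside 13% and 11% of all genes. Primitive erythroid genes had log2 fold changes below 0 in 7 of 7 cases in the anterior and above 0 in 7 of 7 in the posterior piece, with 0 and 5 at an unadjusted p under 0.05 beside the same shares of all genes, and 0 passed in either. They summed to 962 to 4642 CPM in anterior control and 1209 to 2023 CPM in anterior DKO libraries, and to 1364 to 2209 against 1642 to 3392 CPM in the posterior piece, so both pairs of groups overlapped. The part of these lists in the levels of the dermomyotome factors was not tested.

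With both pieces summed, Eya2 rose by 0.70 (adjusted p = 0.0146) and Foxc2, a forkhead factor of somite and sclerotome, fell by 0.46 (adjusted p = 0.0367) on the log2 scale. Of 8 targets and partners of Pax3, Itm2a (0.54, adjusted p = 0.0495) and Myf5 (0.72, adjusted p = 0.0486) rose there, while 0 of 8 passed in either piece alone. Over all genes 0.348% passed in the summed comparison, beside 2 of 8 for this list and 2 of 15 for the dermomyotome factors. Myf5 is the early determination factor of the myotome, and it was at 9.66 to 11 CPM in anterior control and 14.3 to 21.2 CPM in anterior DKO libraries (adjusted p = 0.0522). The Eya2 call was lost without control embryo 5 (0.0547). The other 3 were lost without any of the 5 control embryos or without DKO embryo 1, Itm2a also without DKO embryo 2 or 4 and Myf5 without DKO embryo 4, with adjusted p reaching 0.154 for Foxc2, 0.211 for Itm2a and 0.154 for Myf5. Size factors by relative log expression gave Itm2a 0.0515.

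Early myotome genes, Myf5 among them, lay above 0 in DKO embryos in 10 of 11 anterior, 6 of 10 posterior and 11 of 12 summed cases. Of them 4, 0 and 4 had an unadjusted p under 0.05. Over all genes 13% of the anterior, 11% of the posterior and 2826 of 17827 of the summed comparison did. From the list 1 of 11 passed in the anterior piece and 2 of 12 with both pieces summed, beside 0.0394% and 0.348% of all genes. Besides Myf5 the calls were of Cdh15, a muscle cadherin named after its values were seen. It rose by 0.71 in the anterior piece (SE 0.0899, adjusted p = 0.0286) and by 0.80 with both pieces summed (SE 0.103, adjusted p = 0.0164) on the log2 scale. The anterior call was lost without control embryo 2, 3, 4 or 5 or DKO embryo 1 or 3 (0.0514 to 0.144) and the summed one without control embryo 1 or 3 or DKO embryo 1 or 4 (0.0595 to 0.0721). Over all alternatives the adjusted p went down to 1.49e-08 and 2.83e-10. The list summed to 114 to 180 CPM in anterior control and 145 to 221 CPM in anterior DKO libraries, and to 46.0 to 61.3 against 48.9 to 77.8 CPM posteriorly, with overlap in both pieces. In the summed comparison 1 neural crest gene, Sox10, also passed (0.54, SE 0.0951, adjusted p = 0.0495), and its call was lost in 8 of 13 alternatives, each 1 of the 5 control embryos left out, DKO embryo 1 or 4 left out and size factors by relative log expression (0.0514 to 0.198). Hes5 passed there too (0.80, SE 0.0902, adjusted p = 0.00864, at most 0.0329 over 13 alternatives). The part of these lists in the Myf5 and Itm2a values was not tested.

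**Figure D5:**
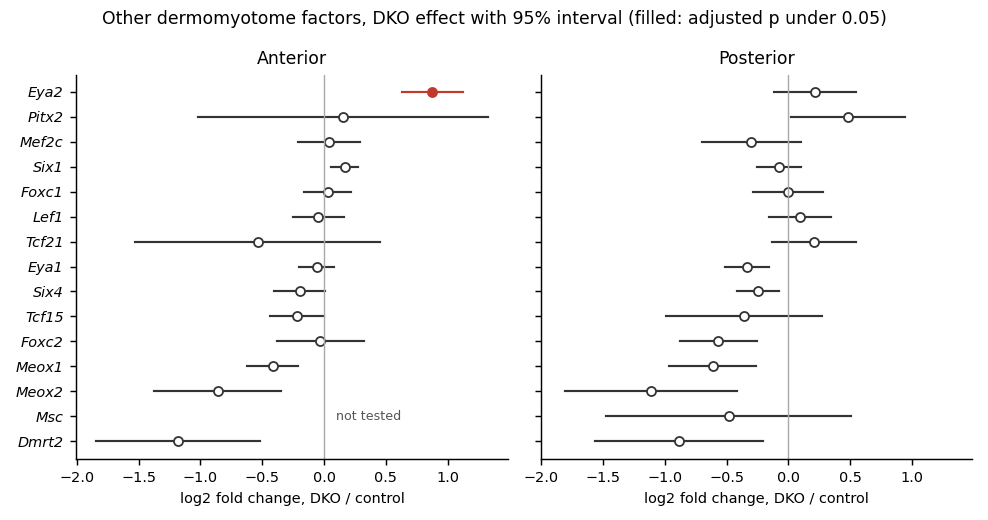
Log2 fold change of DKO over control (x axis) with its 95% interval for 15 other dermomyotome factors (y axis) in the anterior and the posterior piece. Anterior Eya2, filled, passed an adjusted p of 0.05, and Meox1, Meox2 and Dmrt2 lie below 0 in both pieces.

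Between the pieces, 3 higher and 3 lower genes are named from 5 lists alone: the dermomyotome factors, the Pax3 targets and partners, the Hgf and Met pathway, the Cxcl12 list and the secreted signals. Marker lists of other tissues were not used for this choice. In control embryos Dkk1 (3.51, SE 0.465), a Wnt antagonist, Fgf8 (2.95, SE 0.211), the growth factor of the axial bud, and Tcf21 (1.90, SE 0.169), a mesodermal basic helix-loop-helix factor, were higher in the posterior piece. Mef2c (−1.51, SE 0.158), a muscle transcription factor, Itm2a (−1.46, SE 0.0984) and Wnt1 (−1.20, SE 0.153), the Wnt ligand of the dorsal neural tube, were lower there. Adjusted p-values of these 6 ranged from 5.13e-07 to 0.000119. The same fit in DKO embryos gave 4.0, 3.23 and 2.65 for Dkk1, Fgf8 and Tcf21 and −1.85 and −1.49 for Mef2c and Itm2a, and the third lower gene named from these lists was Myf5 at −1.37 (adjusted p = 0.00212). Early myotome genes all had log2 fold changes below 0 posteriorly, with medians of −1.89 in controls and −2.07 in DKO embryos. Of 11 tested, 10 passed as lower in controls and 11 in DKO embryos, beside 13.3% and 9.7% of all genes. All 10 axial bud genes passed as higher there in both genotypes, beside 12.1% and 8.76% of all genes.

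After removal of group means, log2 CPM over the 18 libraries was compared between genes, as a description in which libraries of an embryo share their source. Among 11817 protein-coding genes (11818 for En1), Pax7 was closest to Rgs8 (r = 0.958), Cntfr (0.920) and Unc5a (0.912), and Pax3 to Sh3bp5 (0.907), Insm1 (0.878) and Lrig1 (0.876). En1 was closest to Mapt (0.924), Dpysl4 (0.919) and Elavl4 (0.899), and Cxcr4 to Numb (0.896), Zfp248 (0.847) and Alkbh8 (0.809). Lbx1 was closest to Tbc1d7 (0.880), Acaa2 (0.859) and 1110032F04Rik (0.823), and Gab1 to Foxn2 (0.874), Usp16 (0.843) and Klf2 (0.842). Sim1 was closest to Arsk (0.835), Shroom3 (0.819) and Naglu (0.811). Met had the lowest top values, with Lima1 (0.791), Abca5 (0.750) and Dgka (0.743). Among the members themselves, Pax7 and En1 (0.691), Pax3 and Sim1 (0.631) and Pax7 and Lbx1 (0.603) were most alike, and Cxcr4 had a negative value with all 7 others, from −0.411 with Lbx1 to −0.0857 with En1.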

How the data were processed

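Per the submitters' processing notes, reads were handled with CASAVA, cutadapt and RSEM on mouse build GRCm38. The authors deposited expected counts from RSEM for each Ensembl gene, unscaled, and the aligner and the use of read strand are not given in the sources used here. GENCODE M21 held 53360 of the identifiers and gave symbols, coordinates and exon lengths. Expected counts were rounded and tested in R 4.3.3 with edgeR 4.0.16 (filterByExpr with a minimum count of 10 and total of 15, trimmed mean of M values, quasi-likelihood test, Benjamini-Hochberg over all genes tested, threshold 0.05). The standard error is the log2 fold change divided by the square root of F, and intervals are 95%. CPM is scaled over all 18 libraries together.

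The pieces were matched to embryos on genotype, sex label and somite number. In this matching control embryos 1 and 5, both with 23 somites, were told apart by the sex label alone. Expression did not bear out that label for embryo 1. Deviations from group means correlated at 0.256 to 0.570 within the 9 embryos and at −0.283 to 0.0916 between 32 pairs of different embryos. Embryo therefore entered as a block in an alternative. Further alternatives were relative log expression size factors, DESeq2 1.42.0, no low-count filter, somite number as a covariate, and each embryo left out. The per-somite fit and the sum of both pieces were added after the data were seen. The members and lists were chosen with earlier results of these data known.

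All members were named, with Hgf, Cxcl12 and Ackr3, genes of 5 lists past the threshold between genotypes, the 3 higher and 3 lower with the largest fold change between pieces (mean of at least 50 counts), and the 3 closest patterns of each member. In simulated data with 200 changed genes, changes of 1 on the log2 scale were recovered in 72% (anterior) and 72% (posterior) of cases, and changes of 0.5 in 54% and 30%. False calls were 10 and 0. For the difference of DKO effects, 59% and 15% were recovered. These shares hold for the simulated setting and need not hold for the real comparisons, in which 6 and 2 genes passed. Reads carried no molecular tags, and floors cover only the error of counting. In genotype comparisons, where each embryo enters once, p-values measure the spread between embryos. Between pieces, and for the difference of DKO effects, the main fits took both libraries of an embryo as independent. Only the block alternative paired them.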

Additional observations from a re-analysis of the deposited data

Results flagged for a closer look

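Pax7 in the anterior library of control embryo 2 was at 9.84 CPM, the lowest of the 5 controls and far from the others, which lay between 16.1 and 17.5 CPM. It was 1 of 32 groups of gene, piece and genotype read for an outlying library, of which chance marks about 1 in 20. The embryo had 20 somites, the fewest of the controls, and its posterior library also held the lowest Pax7 of its group, at 1.63 CPM.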

How the results depend on the processing

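Over all alternatives for single members, 475 values kept their direction and side of the threshold, 7 came to pass it, 24 no longer passed and 11 changed sign, none of the 11 with an adjusted p under 0.05. The number of members past the threshold in the anterior genotype comparison was 0, and it was 1 with DESeq2 and 1 without the low-count filter. In the posterior one it was 0, and it was 2 with DESeq2, 1 without the filter, 1 with the somite covariate, and 0 to 1 when single embryos were left out. Between pieces, controls gave 6 and from 2 to 4 with an embryo left out, DKO embryos gave 4 and from 2 to 4, and the summed comparison gave 1 and from 0 to 1. Over all genes DESeq2 called 296 anterior and 161 posterior genes where edgeR called 6 and 2, the unfiltered fit called 83 and 14, and the somite covariate 84 and 7. With single embryos left out edgeR called 1 to 57 and 2 to 24, the highest without DKO embryo 2. In the summed comparison 62 became 716 with DESeq2, 40 with relative log expression, 120 unfiltered, 122 with the covariate and 5 to 118 with an embryo left out, and between DKO pieces 2913 became 1728 without DKO embryo 1.

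The embryo block changed the call of no member, brought Cxcl12 between DKO pieces past the threshold (adjusted p 0.166 to 0.0411) and moved the control count of all genes between pieces from 3884 to 5136. It turned Cxcr4 between the control pieces to −0.0063 (a value of 0.00 without it). With single embryos left out, that Cxcr4 value ran from −0.085 to 0.088, anterior Pax7 between genotypes from −0.19 to 0.062, anterior Met from −0.14 to 0.046, posterior Gab1 from −0.085 to 0.0051, posterior Hgf from −0.18 to 0.19, Sim1 between the DKO pieces from −0.21 to 0.36, and the difference of DKO effects from −0.50 to 0.082 for Sim1 and from −0.028 to 1.48 for En1. The cause of these changes was not tested. Depth limits Lbx1 and En1, which held few posterior counts.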
